A study of Mus musculus with 12 samples.

Results

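The comparison described here is the change in gene expression after PU.1 was activated for 24 h in cells that carried an empty vector. The cells were PUER cells, a mouse myeloid line that carries a fusion of PU.1 with the ligand-binding domain of the estrogen receptor, and the drug 4-hydroxytamoxifen (4-OHT) switches this fusion on. All cells compared here had been infected with the retroviral vector MIGR1, which expresses green fluorescent protein (GFP) and no added gene, and cells with green fluorescence were taken by flow sorting 5 days later. The 0 h group had received no 4-OHT, and the 24 h group had received 10 nM 4-OHT. Each group had 3 arrays, lettered A, B and C, chosen by their labels as the 6 of 12 arrays in the series without the β-catenin-S33Y vector. No label tells if the letters A to C stand for different cultures, so the scatter behind the p-values may be a technical one. That scatter was estimated within groups over all 12 arrays, those with the β-catenin-S33Y vector included. Neither untreated cells at 24 h nor treated cells lacking the fusion were part of the comparison, so activation of PU.1, exposure to 4-OHT and time in culture cannot be told apart. In bulk RNA, fewer cells of a type and less RNA per cell cannot be told apart either.

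PU.1, the product of Spi1, is an ETS family transcription factor that binds purine-rich DNA with a GGAA core and is required for macrophages and B cells. In myeloid progenitors its dose steers the choice between the macrophage, neutrophil and mast cell fates, and it acts both by opening enhancers of myeloid genes and by opposing factors such as GATA proteins. PUER cells were made from progenitors that lack their own PU.1, and the active fusion drives them towards macrophages.

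Total RNA was measured as cy3-labelled cRNA on Agilent mouse whole genome 4×44K arrays, and the deposited normalized table gives a log2 intensity for 27676 gene names, 1 probe each. The median scanned intensity lay between 140 and 208 on the 6 arrays. Between 47.2% and 50.8% of genes lay above the background bound of their array, and 1.42% to 2.18% of spots reached the scan ceiling of 65535. The background bound, set 3 standard deviations above the mode from the spread of an array's lower values, lay between 7.26 and 7.55. A gene is called here where limma's moderated test gave an adjusted p below 0.05, with Benjamini-Hochberg adjustment over 22461 genes tested. Values after ± are standard errors (SE) of the fitted log2 difference, with n = 3 arrays a group. A fold change is written "at least" where an array of the dimmer group lay below its bound, which then replaced its value, or where an array of the brighter group was at the ceiling. For every gene whose 6 array values are given below, all 24 h arrays lay on 1 side of all 0 h arrays.

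After 24 h of 4-OHT, 5096 of 22461 genes tested had changed, 2674 upward (11.9%) and 2422 downward (10.8%). The rises were the larger changes. At least 2-fold rises numbered 580 and falls 513, at least 8-fold rises 82 and falls 18, and at least 32-fold rises 22 and falls 2. The 3 arrays at 24 h did not overlap the 3 arrays at 0 h for 35.5% of tested genes, and for 5047 of the 5096 called genes. The split between rises and falls depended on the scaling. It was 2614 up and 2947 down after normexp background correction and quantile normalization, and 2058 up and 3327 down after scaling to the 75th percentile, which moved the median change of all genes from −0.005 to −0.12 on the log2 scale. Counts of lists below are therefore read against all genes, and lists whose larger side depended on the scaling are named as such. The shares for all genes include 7301 tested genes below background in both groups, of which few were called. In terciles of genes above the bound on all 0 h arrays, 13.1% to 20.3% rose and 16.3% to 17.7% fell. A list of expressed genes can thus exceed 11.9% or 10.8% without exceeding expressed genes at large. Counts below 5 in a list often moved by more than 1.5 times when an array was left out, and such moves are given below for counts of 5 or more, with the array that was left out.

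**Figure D1:**
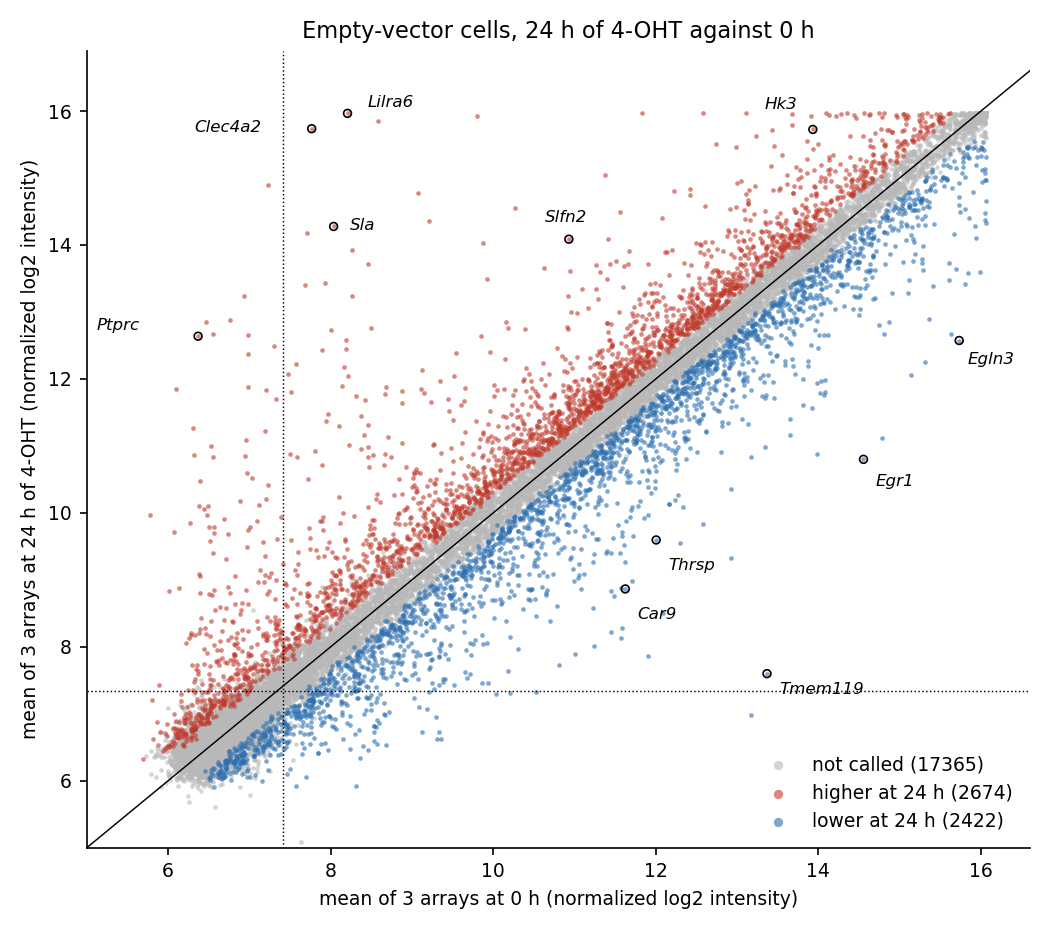
Mean normalized log2 intensity at 24 h of 4-OHT (vertical axis) against 0 h (horizontal axis) for the 22461 genes tested, each point a gene and each mean over 3 arrays. Red points were called higher (2674), blue points lower (2422) and grey points were not called. Dotted lines mark the mean background bound of each group and the solid line marks no change. Most of the farthest points lie above the line and start near the background bound.

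Some of the rises began from no measurable signal. Of 8169 genes below the bound on every 0 h array, 380 rose (4.65%) and 131 of these rose at least 2-fold. A further 142 were called lower (1.74%), 0 of them at least 2-fold. Genes in the middle tercile above the bound rose in 20.3% of cases and fell in 17.7%. In the upper tercile 13.1% rose and 16.3% fell. A total of 183 genes appeared, meaning that they lay below the bound on all 0 h arrays and above it on all 24 h arrays, and 166 of them were called. The reverse was seen for 96 genes, all of them called. The brightest that appeared were Bcl2a1c (at least 56.4-fold), Il1rl2 (at least 43.1-fold), Pira6 (at least 38.2-fold), Mmp9 (at least 37.6-fold) and Ptprc (at least 37.2-fold). Among the 10 brightest that disappeared were Spon2 (at least 3.92-fold), Aldh1l2 (at least 3.87-fold) and Dixdc1 (at least 3.58-fold). At the other end, 450 tested genes were at the scan ceiling on all 6 arrays, where no change can be read. Their normalized values differed by a median of −0.09, and none of them was called.

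The probes for the parts of the fusion were read first. Spi1 (listed as Sfpi1) read 12.71, 12.41 and 12.36 at 0 h and 12.02, 12.09 and 11.91 at 24 h. All 24 h arrays lay below all 0 h arrays, a log2 change of −0.49 ± 0.11 (adjusted p = 0.00741). Esr1, the estrogen receptor gene, read 8.41, 8.67 and 8.93 at 0 h and 8.19, 8.16 and 8.23 at 24 h, with a log2 change of −0.48 ± 0.12 (adjusted p = 0.0141), and this call was lost without 0 h array C. Neither group of either gene overlapped the other, and both probes lay above background on all 6 arrays. Probe positions were not used here, so whether these probes read the fusion transcript is unknown. The β-catenin gene Ctnnb1 read 13.87, 13.90 and 13.82 at 0 h and 13.67, 13.81 and 13.77 at 24 h, with a log2 change of −0.11 ± 0.09 that was not called (adjusted p = 0.461).

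The label of a myeloid line moving towards macrophages was checked against markers. Of 15 tested macrophage markers, 14 rose and 0 fell, and the summed linear value of the 16 in the table lay between 79628 and 105206 on the 0 h arrays and between 165257 and 194457 on the 24 h arrays. Csf1r, the receptor for macrophage colony-stimulating factor, read 6.85, 6.92 and 6.19 at 0 h and 8.02, 7.85 and 7.97 at 24 h. It lay below background on all 0 h arrays and just above it on all 24 h arrays (at least 1.44-fold, adjusted p = 3.40e-04). Erythroid markers were mostly dim: 10 of 16 lay below background on all control arrays, and their summed value was 4651 to 4754 at 0 h and 3296 to 3622 at 24 h. Of 21 T and NK cell markers, 14 lay below background throughout, and their summed value went from 9391 to 11120 at 0 h to 3549 to 3917 at 24 h, most of it from Nkg7, which fell 5.93-fold. Of 10 eosinophil markers, 7 lay below background throughout, Ccr3 and Siglecf among them. Eosinophil markers were called higher in 6 of 9 tested, but these include genes below background throughout, where no change can be sized. Of the 6, 2 rose at least 2-fold, and the median log2 change with values set to the bounds was −0.08. The summed value went from 909 to 1408 at 0 h to 1612 to 3761 at 24 h, led by Prg2, a granule protein, which rose at least 3.87-fold. Mast cell and basophil markers gave 2 rises and 4 falls of 17 tested, megakaryocyte markers 3 rises and 5 falls of 14, B cell markers 2 and 2 of 11, and dendritic cell markers 5 and 1 of 11. Cma1 and Cpa3, mast cell protease genes, lay below background on all control arrays. Of 15 megakaryocyte markers, 9 lay below background on all 0 h arrays and 6 on all control arrays, and 1 reached the scan ceiling. Their summed value, which follows the brightest members, went from 61533 to 72309 at 0 h to 17448 to 24651 at 24 h. Thbs1, the thrombospondin gene of that list, fell at least 3.56-fold. The part of these cell types in the results below was not tested.

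Among the largest rises in normalized log2 values were those of Clec4a2, Lilra6 and Clec4b1, receptors of the myeloid cell surface, though genes at background or at the ceiling have no settled rank. Clec4a2, an inhibitory C-type lectin receptor, read 7.69, 7.96 and 7.65 at 0 h and 15.96, 15.58 and 15.66 at 24 h, a log2 change of 7.97 ± 0.15. Lilra6 (listed as Pira3), an activating paired immunoglobulin-like receptor, read 8.28, 8.37 and 7.98 at 0 h and 16.09, 16.05 and 15.76 at 24 h, with all 24 h arrays at the ceiling. Pirb (listed as Lilrb3), the inhibitory partner of that family, read 9.61, 10.01 and 9.77 at 0 h and 16.08, 15.93 and 15.76 at 24 h and rose at least 69.9-fold. The groups were far apart for all 3 genes. Among immunoglobulin-like, LILR, SIRP, CD300, TREM and CD200 receptor genes, 21 of 25 tested rose and 0 fell, with a median log2 change of 1.89 against −0.005 for all genes. They included Pilrb1 (listed as Pilrb, 50.7-fold), Sirpb1a (listed as Sirpb1, 45.4-fold), Trem2 (35.5-fold) and Treml4 (19.2-fold). Trem2, a lipid-sensing receptor, read 9.03, 9.36 and 9.23 at 0 h and 14.47, 14.14 and 14.46 at 24 h, and Tyrobp, the adaptor that signals for TREM receptors, rose 31.5-fold. Among Clec genes, 11 of 24 tested rose and 3 fell. Clec11a, a secreted growth factor rather than a surface receptor, read 13.52, 13.33 and 13.21 at 0 h and 11.88, 11.79 and 11.61 at 24 h and fell 3.02-fold. Members of the Clec4, Lilr and Pir, Cd300, Bcl2a1, Slfn and Ifi200 families resemble each other closely, so a probe may read more than the gene it is named for.

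Genes of proteins that signal near such receptors moved in both directions, with more rises than falls. Ptprc encodes CD45, a tyrosine phosphatase found on nearly all nucleated blood cells. Its probe read 6.21, 6.52 and 6.38 at 0 h and 12.69, 12.51 and 12.71 at 24 h, below background on all 0 h arrays, and rose at least 37.2-fold (adjusted p = 7.66e-12). Sla, an adaptor that damps Src family signalling, read 8.19, 8.01 and 7.92 at 0 h and 14.36, 14.26 and 14.21 at 24 h and rose 75.5-fold. Both genes had 3 arrays close together in each group. Of Src, Syk and Tec kinases and their adaptors, 16 of 40 tested rose and 7 fell, among them Skap2 (listed as Scap2, 4.07-fold), Ptpn6 (3.13-fold), Lyn (2.12-fold) and Btk (1.98-fold). Of Fc receptor and ITAM adaptor genes, 6 of 12 tested rose and 1 fell, with Fcgr1 (at least 8.33-fold), Fcer1g (4.26-fold) and Fcgrt (2.95-fold) against Fcgr4 (listed as Fcgr3a, 1.83-fold). The 7 falls among Src, Syk and Tec kinases and their adaptors became 3 without 0 h array B and 2 without 0 h array C and 4 without 24 h array B.

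**Figure D2:**
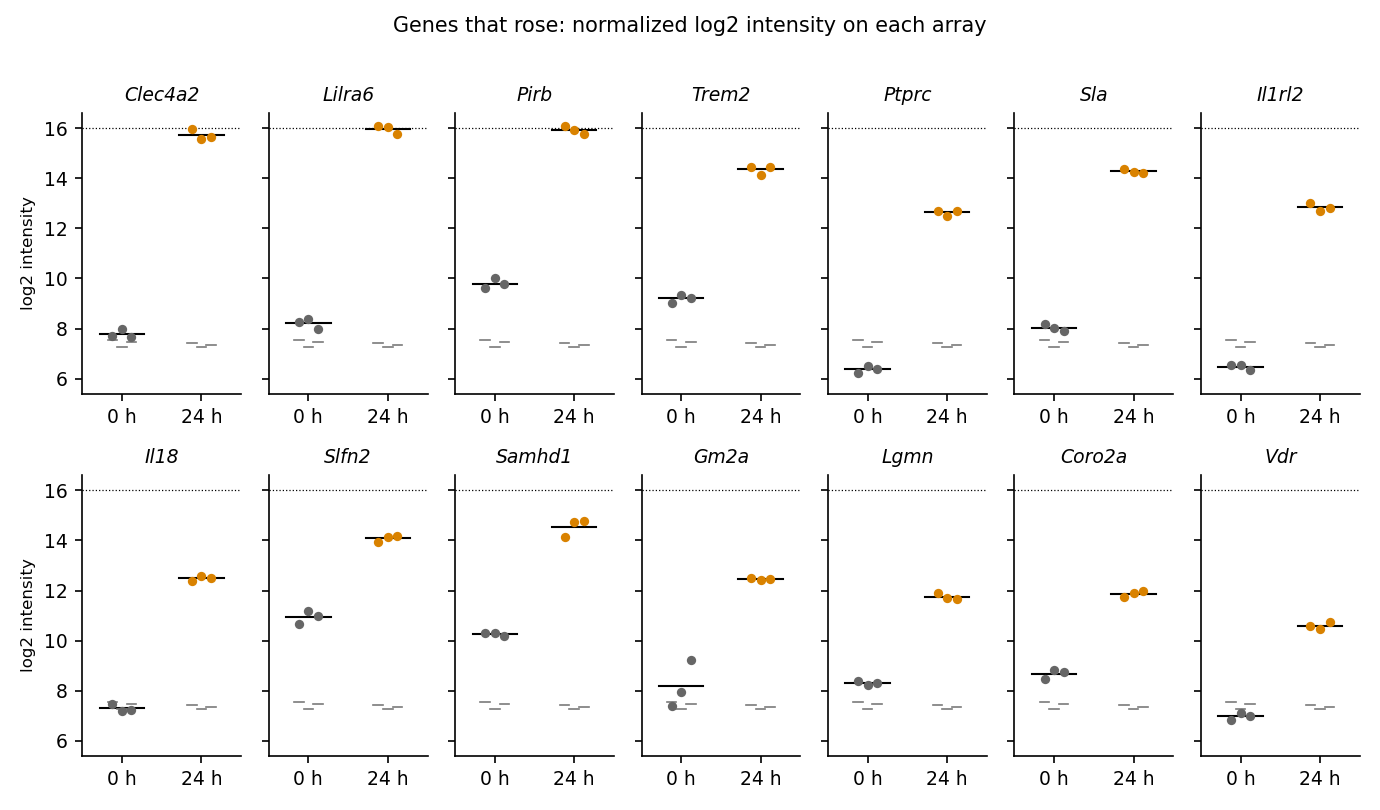
Normalized log2 intensity (vertical axis) of 14 genes that rose, on each of the 3 arrays at 0 h (grey) and 24 h (orange), with black bars for group means. Short grey lines mark each array's background bound and the dotted line the scan ceiling before normalization. No gene shown has overlapping groups. Ptprc, Il1rl2 and Il18 start below the bound and all 24 h arrays of Lilra6 are at the ceiling.

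Promoters of the leading genes were read because several receptor genes among them rose. The motif searched was GAGGAAGT, the PU.1 sequence with the GGAA core, on both strands, and no overlap with another motif arose because only this motif was searched. Among 30 leading genes, 17 matched the RefSeq promoter table of build GRCm38.p6, which gives 250 bases before to 50 after each gene start, and 5 held the motif. Shares count genes that matched the promoter table, each once, with the motif in any of its windows. The motif lay in 37 of 421 genes at least 2-fold higher (8.79%) and in 15 of 348 at least 2-fold lower (4.31%). Among all tested genes it lay in 439 of 13129 (3.34%), and over all 27025 genes of the promoter table the share was 3.69%. Of 60 genes at least 8-fold higher, 13 held it (21.7%), and of 11 at least 8-fold lower, 2 did (18.2%). The windows of Bcl2a1b and Bcl2a1c are nearly alike around the motif, as are those of Pirb and Lilra6. Hits in such relatives are not independent. These shares describe letters in a window and not binding. The sequences below, with the motif in capitals and 5′ to 3′ on the gene's strand, show it in a receptor gene, a Bcl2a1 family gene and a gene that fell. Pirb is at chr7:3720333-3720632 (minus strand, motif starting at base −120 from the gene start), Bcl2a1c at chr9:114329885-114330184 (plus strand, −214) and Fbp1 at chr13:62888233-62888532 (minus strand, −65).
Pirb: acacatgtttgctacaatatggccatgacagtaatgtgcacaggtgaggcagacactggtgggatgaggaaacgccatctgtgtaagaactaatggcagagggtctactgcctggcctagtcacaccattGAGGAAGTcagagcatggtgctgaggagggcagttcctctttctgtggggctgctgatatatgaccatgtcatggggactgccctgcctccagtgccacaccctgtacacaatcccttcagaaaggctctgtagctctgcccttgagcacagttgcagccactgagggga
Bcl2a1c: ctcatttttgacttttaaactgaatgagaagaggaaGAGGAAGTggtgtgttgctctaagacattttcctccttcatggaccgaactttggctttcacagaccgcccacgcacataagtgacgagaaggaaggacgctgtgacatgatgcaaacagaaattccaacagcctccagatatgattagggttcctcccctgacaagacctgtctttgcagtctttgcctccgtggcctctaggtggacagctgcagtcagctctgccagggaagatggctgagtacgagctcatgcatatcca
Fbp1: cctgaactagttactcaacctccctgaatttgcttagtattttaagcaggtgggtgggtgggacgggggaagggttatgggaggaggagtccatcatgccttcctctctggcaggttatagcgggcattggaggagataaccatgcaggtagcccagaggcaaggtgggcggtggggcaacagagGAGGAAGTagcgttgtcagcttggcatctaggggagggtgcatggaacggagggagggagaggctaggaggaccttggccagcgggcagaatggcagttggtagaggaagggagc

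Bcl2a1c, of the Bcl2a1 family, read 6.70, 6.94 and 7.16 at 0 h and 13.16, 13.30 and 13.25 at 24 h, below background on all 0 h arrays. Its relative Bcl2a1b rose at least 155-fold, and the copies Bcl2a1a and Bcl2a1d were not in the data. In the wider list of Bcl2 family and caspase genes, 10 of 40 tested rose and 8 fell, and this split turned to 7 and 9 with 75th percentile scaling. Bid, which links death receptors to mitochondria, and Mcl1, a survival gene, rose by log2 changes of 0.75 ± 0.09 and 0.52 ± 0.10. Bcl2, Bcl2l11 and Cflar, which act against, for and against cell death, changed by −0.56 ± 0.08, −0.57 ± 0.09 and −0.62 ± 0.09. The 10 rises among Bcl2 family and caspase genes became 6 without 0 h array C.

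Of interleukin 1 family genes, 9 of 16 tested rose and 0 fell, at a median log2 change of 0.67. Il1rl2, the interleukin 36 receptor gene, read 6.53, 6.53 and 6.36 at 0 h and 13.02, 12.71 and 12.82 at 24 h. Il18, a cytokine released by inflammasomes, read 7.46, 7.20 and 7.24 at 0 h and 12.39, 12.56 and 12.50 at 24 h. Both lay below background on all 0 h arrays and far above it on all 24 h arrays, and they rose at least 43.1-fold and at least 33.4-fold. The decoy receptor gene Il1r2, the signalling receptor gene Il1r1 and the receptor antagonist gene Il1rn rose at least 18.9-fold, at least 5.61-fold and 2.49-fold. Of cytosolic nucleic acid sensor and inflammasome genes, 8 of 23 tested rose and 1 fell, with Sting1 (listed as 2610307O08Rik, 5.43-fold), Nlrp3 (listed as Cias1, at least 2.26-fold), Pycard (at least 1.74-fold) and Casp1 (1.41-fold). Sting1, the adaptor for cytosolic DNA, read 9.89, 9.88 and 10.13 at 0 h and 12.59, 12.23 and 12.40 at 24 h.

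TNF superfamily genes gave 12 rises and 5 falls among 39 tested. Tnf read 9.29, 9.28 and 9.46 at 0 h and 11.89, 12.06 and 11.98 at 24 h, and its neighbour Ltb rose 6.91-fold. Tnfsf13b encodes the B cell survival factor BAFF. It read 11.51, 11.80 and 11.41 at 0 h and 7.91, 8.29 and 8.18 at 24 h and fell 10.9-fold, with no overlap of the groups, while the related Tnfsf13 (APRIL) rose 2.71-fold. Tnfrsf9 and Tnfrsf1b, receptor genes, fell at least 2.17-fold and 2.13-fold. Of NF-kappaB genes, 9 of 30 tested rose and 5 fell. The members of the non-canonical branch Map3k14, Relb and Nfkb2 rose 3.38-fold, 2.20-fold and 1.45-fold, and Ikbke, Nfkbiz and Nfkbia fell 3.54-fold, 1.91-fold and 1.42-fold. The 5 falls among TNF ligand and receptor superfamily genes became 3 without 0 h array C. The 5 falls among NF-kappaB subunit and regulator genes became 3 without 0 h array A, 0 h array B or 24 h array C.

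Receptors for soluble signals were divided. Among growth factor and cytokine receptor genes, 13 of 49 tested rose and 10 fell. The 4 receptor genes that lie close together on chromosome 16, Ifnar2, Il10rb, Ifnar1 and Ifngr2, rose 2.09-fold, 2.32-fold, 2.43-fold and 3.51-fold. Kit, the stem cell factor receptor of progenitors and mast cells, read 12.85, 12.81 and 12.73 at 0 h and 10.69, 11.04 and 11.01 at 24 h and fell 3.69-fold. Igf1r and Il12rb1 fell 2.54-fold and 3.61-fold. Chemoattractant receptors gave 9 rises and 4 falls of 34 tested, and 7 and 7 with 75th percentile scaling. Ccr2, which brings monocytes to inflamed tissue, read 6.97, 6.78 and 7.20 at 0 h and 11.60, 12.01 and 12.03 at 24 h. Cxcr4, which keeps progenitors in the bone marrow, read 12.60, 12.85 and 12.99 at 0 h and 11.72, 11.14 and 11.22 at 24 h and fell 2.74-fold. The formyl peptide receptor genes Fpr1 and Fpr2 (listed as Fpr-rs2) rose at least 5.02-fold and at least 5.84-fold from below background. Sucnr1, the succinate receptor, read 5.89, 6.31 and 6.10 at 0 h and 12.15, 11.60 and 11.78 at 24 h, and P2ry6, the receptor for UDP, rose 7.09-fold. Toll-like receptor genes and their partners gave 6 rises and 5 falls of 23 tested, and 7 and 7 under either other scaling. Ly96 and Cd14, which present lipopolysaccharide to TLR4, rose 4.19-fold and at least 3.25-fold, whereas Lbp, the plasma protein that carries it, fell 2.85-fold. The 5 falls among Toll-like receptors, co-receptors and adaptors became 3 without 0 h array B, 0 h array C or 24 h array B.

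Genes known for induction by interferon rose in part. Of interferon-stimulated genes, 16 of 42 tested rose and 6 fell. Samhd1, which degrades deoxynucleotides and restricts viruses, read 10.31, 10.29 and 10.20 at 0 h and 14.12, 14.75 and 14.79 at 24 h and rose 19.5-fold. Usp18, Irf9 (listed as Isgf3g) and Parp14 rose at least 4.35-fold, 2.41-fold and 2.44-fold. The antiviral genes Ifit2 and Ifit3 and the membrane protein genes Ifitm2 and Ifitm3 fell, Ifit2 by a log2 change of −0.79 ± 0.10 and Ifitm3 by −0.52 ± 0.10. In the p200 family, 5 of 7 tested rose and 0 fell, at a median log2 change of 1.57, and in the Schlafen family, 5 of 6 tested rose and 0 fell, at 1.38. Slfn2, needed for quiescence of mouse T cells and monocytes, read 10.64, 11.17 and 10.98 at 0 h and 13.94, 14.12 and 14.20 at 24 h. The 24 h arrays stood well above the 0 h arrays. Interferon-inducible GTPase genes gave 5 rises and 3 falls of 17, and 4 and 4 with 75th percentile scaling. Interferon regulatory factor genes gave 3 rises, Irf7, Irf8 and Irf9, and 0 falls of 9. MHC class II and costimulation genes gave 8 rises and 1 fall of 19, led by Havcr2 (at least 6.74-fold), Ctss (at least 4.87-fold) and Cd80 (at least 4.82-fold). These leading genes do not encode MHC class II chains, and 11 of the 24 members in the data lay below background on all control arrays. Vsir (listed as 4632428N05Rik), a checkpoint receptor, fell 2.28-fold.

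In the lists of the degradative compartment, rises outnumbered falls. Of lysosomal hydrolase genes, 27 of 46 tested rose and 4 fell with a median log2 change of 0.39, of lysosomal membrane and biogenesis genes, 15 of 43 tested rose and 2 fell, and of V-ATPase subunit genes, 9 of 25 tested rose and 0 fell. Cathepsin genes gave 6 rises and 0 falls of 18 tested. Gm2a, the activator protein for ganglioside breakdown, read 7.38, 7.94 and 9.24 at 0 h and 12.48, 12.42 and 12.44 at 24 h. A single 0 h array of Gm2a lay below background, and the 0 h arrays were more spread than those of other leading genes. Lgmn, an asparagine-specific protease, read 8.39, 8.24 and 8.32 at 0 h and 11.91, 11.69 and 11.65 at 24 h and rose 10.8-fold. Slc11a1, which pumps metal ions out of phagosomes, read 8.36, 8.49 and 8.53 at 0 h and 13.76, 13.50 and 13.90 at 24 h and rose 38.3-fold. Further rises were those of Lipa (listed as Lip1, 3.37-fold), Man2b1 (2.84-fold), Fuca1 (at least 2.83-fold), Atp6v0a1 (3.04-fold), Atp6v1b2 (2.66-fold) and Tfe3 (listed as Tcfe3, 1.76-fold). Lyst, the gene of lysosomal trafficking, read 12.83, 13.04 and 12.97 at 0 h and 11.73, 11.88 and 11.94 at 24 h and fell 2.14-fold. Autophagy genes gave 5 rises and 9 falls of 38, with Atg12 at the ceiling on all 0 h arrays and at least 1.96-fold lower at 24 h.

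Actin regulators rose in 42 of 108 tested and fell in 6, with a median log2 change of 0.20. Coro2a, a coronin that binds actin, read 8.47, 8.83 and 8.74 at 0 h and 11.76, 11.89 and 11.99 at 24 h and rose 9.19-fold. The relative Coro1a reached the ceiling on all 24 h arrays (at least 3.65-fold). Pstpip1, Capg and Myo1f, which shape podosomes, cap filaments and move membranes, rose 4.19-fold, 3.15-fold and 2.78-fold. Exchange factor genes of the DOCK family moved apart. Dock4 read 6.76, 7.05 and 7.03 at 0 h and 10.44, 11.04 and 11.08 at 24 h. Dock9 read 12.12, 12.01 and 12.15 at 0 h and 8.50, 8.39 and 8.61 at 24 h. Dock4 rose at least 10.8-fold from below background and Dock9 fell 12.1-fold. The small GTPase genes Rhoj and Rhou fell 5.49-fold and 4.70-fold. Rapgef3, the cyclic AMP-activated exchange factor for Rap, read 13.05, 12.97 and 12.77 at 0 h and 9.58, 9.36 and 9.02 at 24 h and fell 12.2-fold. S100, annexin and galectin genes, many of which bind calcium or membranes, gave 12 rises and 4 falls of 35, with Anxa6 (17.7-fold), S100a10 (5.26-fold) and S100a4 (5.02-fold) against Lgals9 (2.67-fold) and Lgals4 (2.27-fold).

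**Figure D3:**
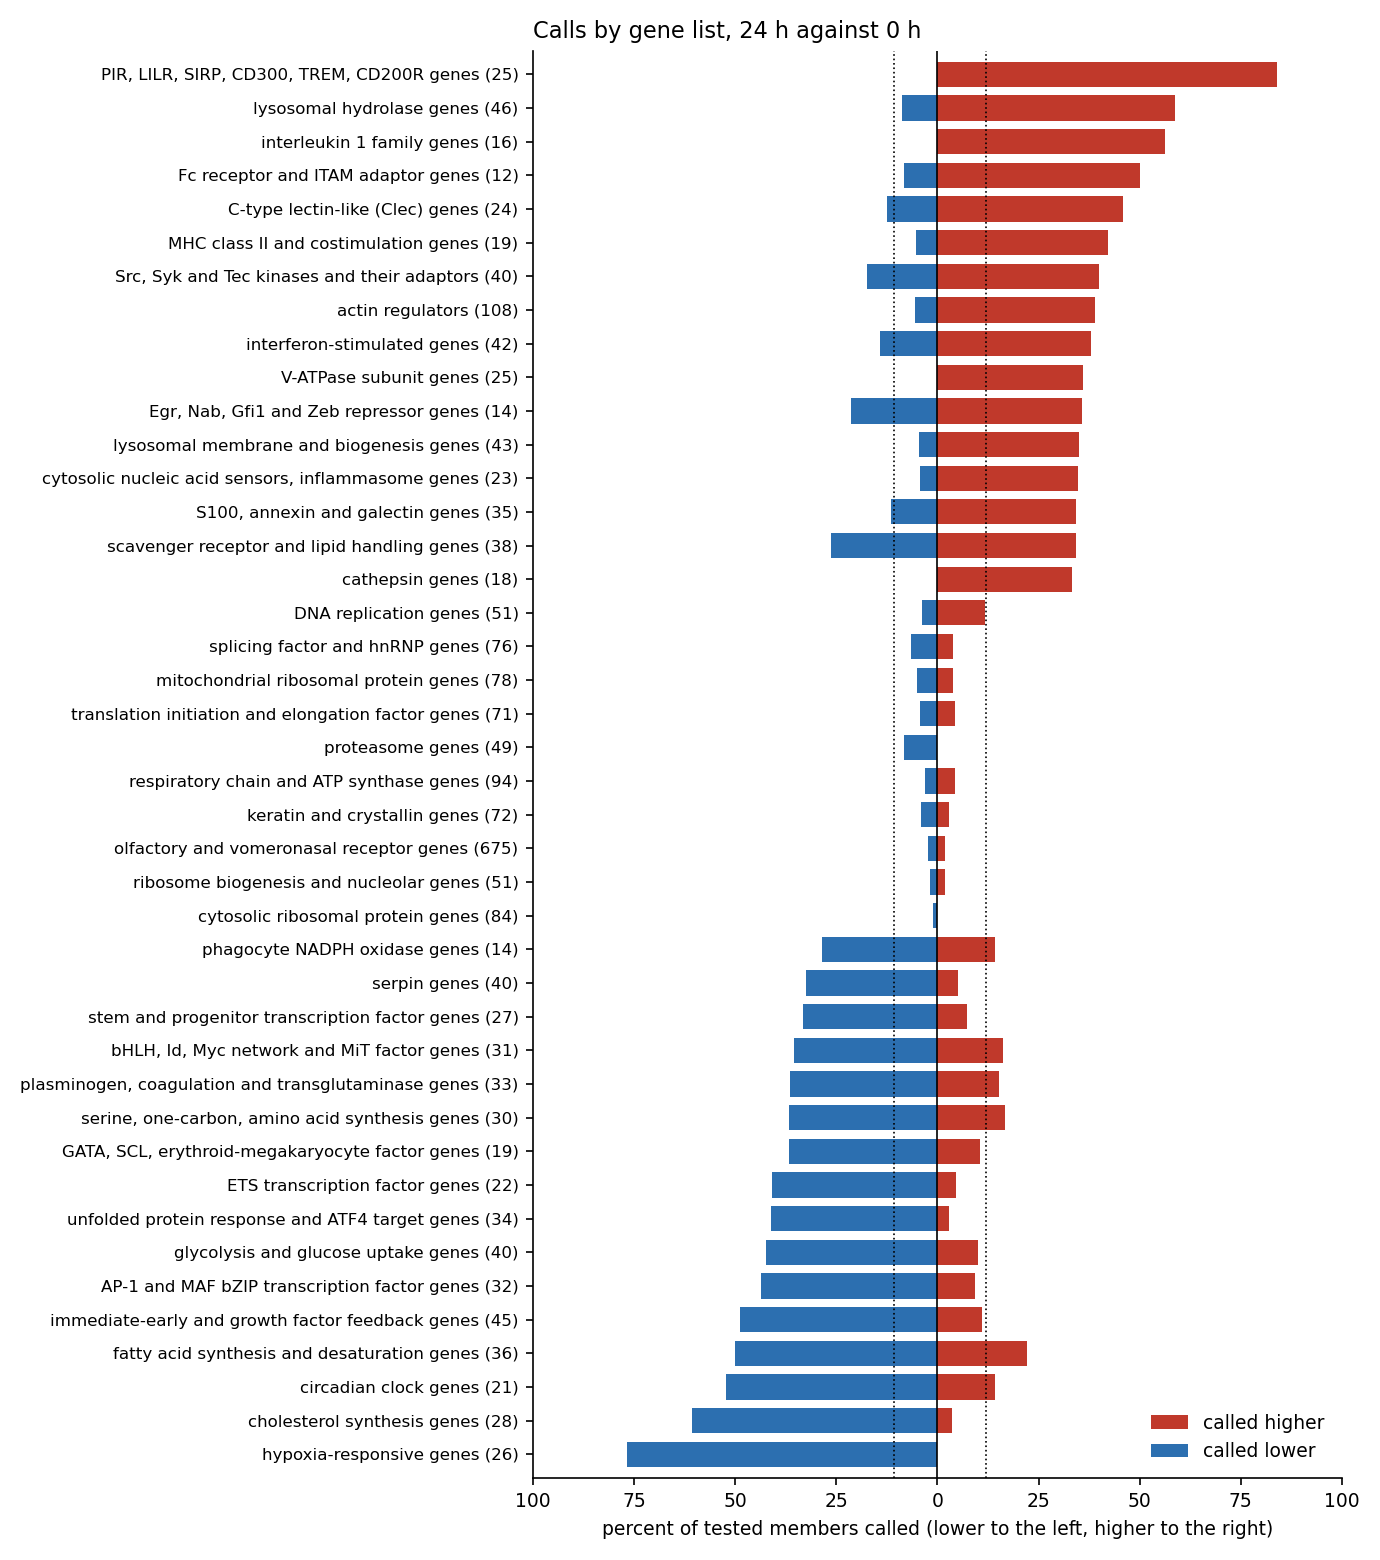
Percent of tested members called higher (red, to the right) and lower (blue, to the left) in 42 gene lists, with the number of tested members in parentheses. The lists are the 16 with the highest share of rises, the 10 with the lowest share of calls and, of those not already drawn, the 16 with the highest share of falls, among lists other than cell type markers with at least 10 tested members. Dotted lines mark the shares for all genes, 11.9% and 10.8%. Receptor, lysosomal and actin lists reach far to the right and hypoxia, cholesterol and clock lists far to the left.

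Among lists with at least 10 tested members, the highest share of falls was that of hypoxia-responsive genes, which are induced by hypoxia-inducible factor when oxygen or prolyl hydroxylase activity is low. Of 26 tested, 20 fell and 0 rose, at a median log2 change of −0.86, and 9 fell at least 2-fold. With either other scaling 21 fell and 0 rose. Egln3, a prolyl hydroxylase of hypoxia-inducible factor, read 15.85, 15.79 and 15.56 at 0 h and 12.38, 12.71 and 12.63 at 24 h, and 1 of its 0 h arrays was at the ceiling (at least 8.93-fold lower, adjusted p = 7.67e-09). Car9, a surface carbonic anhydrase, read 11.33, 12.05 and 11.49 at 0 h and 8.65, 9.02 and 8.92 at 24 h, and fell 6.77-fold (adjusted p = 5.53e-07). Bnip3, a mitophagy receptor, read 15.93, 15.79 and 15.81 at 0 h and 13.49, 13.63 and 13.62 at 24 h. No 24 h array of these genes came within 1 log2 unit of a 0 h array. Vegfa, the vascular growth factor, read 14.88, 14.93 and 14.61 at 0 h and 12.69, 12.80 and 12.54 at 24 h and fell 4.39-fold. Further falls were those of Hilpda (listed as 2310016C08Rik, 4.07-fold), Ero1a (listed as Ero1l, 3.85-fold), Car12 (3.67-fold), Ankrd37 (2.64-fold) and Ddit4 (at least 2.12-fold). Hif1a itself, the oxygen-regulated subunit of the factor, read 13.52, 13.65 and 13.65 at 0 h and 12.75, 13.02 and 12.88 at 24 h, a log2 change of −0.72 ± 0.09.

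Glucose metabolism overlapped this group. Of glycolysis and glucose uptake genes, 4 of 40 tested rose and 17 fell, with 5 tested members shared with the hypoxia list. Fbp1, which reverses the committed step of glycolysis, read 11.50, 11.91 and 11.36 at 0 h and 8.40, 8.35 and 8.10 at 24 h and fell 9.91-fold. Pfkl, the liver form of phosphofructokinase, read 14.47, 14.27 and 14.21 at 0 h and 12.81, 13.12 and 13.36 at 24 h and fell 2.34-fold. Its relatives Pfkm and Pfkp fell 1.65-fold and 1.65-fold, and the glucose transporter gene Slc2a1, at the ceiling on all 0 h arrays, fell at least 1.88-fold. Hexokinase genes went apart: Hk1 and Hk2 fell 1.46-fold and at least 1.74-fold, while Hk3, the form found in myeloid cells, read 14.06, 13.89 and 13.85 at 0 h and 15.82, 15.64 and 15.71 at 24 h and rose 3.47-fold. In the pentose phosphate, glycogen and sugar nucleotide list, 3 of 27 tested rose and 7 fell, with falls of Gys1 (2.45-fold), Gbe1 (at least 2.12-fold) and Pgd (at least 1.85-fold) and rises of Pygb (2.09-fold). Gys1 and Gbe1 build glycogen and Pygb breaks it down.

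**Figure D4:**
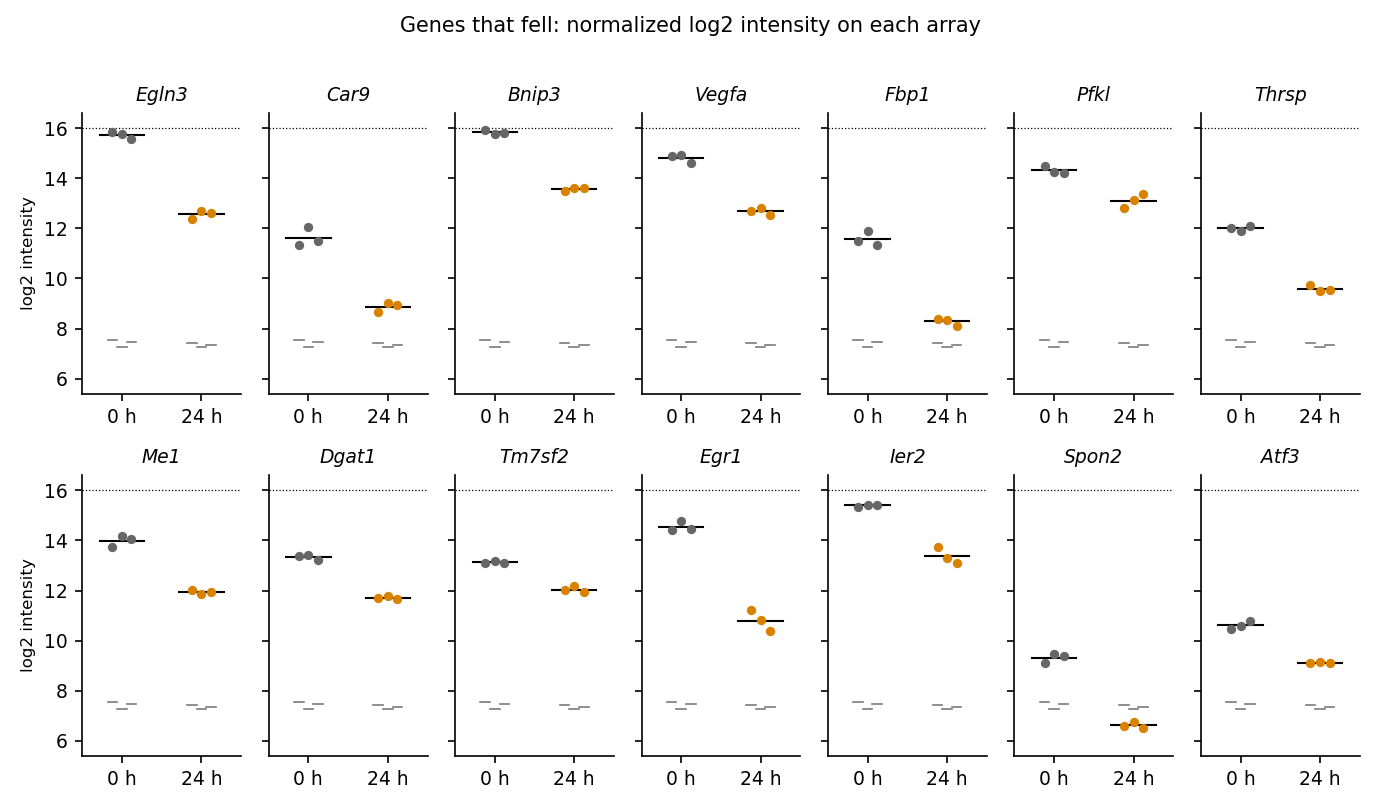
Normalized log2 intensity (vertical axis) of 14 genes that fell, on each of the 3 arrays at 0 h (grey) and 24 h (orange), with black bars for group means. Short grey lines mark each array's background bound and the dotted line the scan ceiling before normalization. No gene shown has overlapping groups. Spon2 is the 1 gene that ends below the bound, and Egln3 and Bnip3 start near the ceiling.

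Falls outnumbered rises in 2 lists of lipid synthesis genes. Of cholesterol synthesis genes, 1 of 28 tested rose and 17 fell, at a median log2 change of −0.48, and single changes were modest. Tm7sf2, a sterol reductase, read 13.11, 13.18 and 13.08 at 0 h and 12.01, 12.17 and 11.93 at 24 h and fell 2.13-fold. Srebf2, the factor that drives the pathway, fell 1.32-fold. The groups did not overlap for either gene. Of fatty acid synthesis and desaturation genes, 8 of 36 tested rose and 18 fell. Thrsp, a regulator of lipogenesis, read 12.02, 11.88 and 12.11 at 0 h and 9.74, 9.51 and 9.54 at 24 h and fell 5.31-fold. Me1 (listed as Mod1), which supplies NADPH for it, fell 4.12-fold, and the triglyceride synthesis genes Dgat1 and Dgat2 fell 3.11-fold and at least 2.999-fold. Lpcat2 (listed as Aytl1) and Acss1 rose 1.94-fold and 2.19-fold. Fatty acid oxidation genes gave 4 rises and 1 fall of 30, and 2 and 4 with 75th percentile scaling. Scavenger receptor and lipid handling genes gave 13 rises and 10 falls of 38, without a stable larger side across scalings. Lpl, lipoprotein lipase, read 12.91, 13.33 and 13.09 at 0 h and 16.09, 16.05 and 15.76 at 24 h with all 24 h arrays at the ceiling, whereas the cholesterol exporter Abca1 and its regulator Nr1h3 fell at least 1.51-fold and 2.30-fold.

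Genes of the unfolded protein response and of the ATF4 pathway, which senses amino acid shortage, gave 1 rise and 14 falls of 34 tested. Atf3 read 10.48, 10.57 and 10.80 at 0 h and 9.12, 9.16 and 9.08 at 24 h and fell 2.82-fold. Trib3, Chac1 and Atf4 fell 2.64-fold, 1.79-fold and 1.63-fold, and Xbp1, of the other branch of the response, fell 1.49-fold. Serine, one-carbon and amino acid synthesis genes gave 5 rises and 11 falls of 30. The falls were led by Aldh1l2, a mitochondrial folate enzyme that went below background on all 24 h arrays (at least 3.87-fold), and Cth, which makes cysteine (3.38-fold). Mtr and Glul, methionine and glutamine synthases, rose 1.96-fold and 1.84-fold. Aminoacyl-tRNA synthetase genes gave 1 rise and 7 falls of 33. The 7 falls among aminoacyl-tRNA synthetase genes became 4 without 0 h array A or 0 h array B and 3 without 0 h array C, 24 h array B or 24 h array C.

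**Figure D5:**
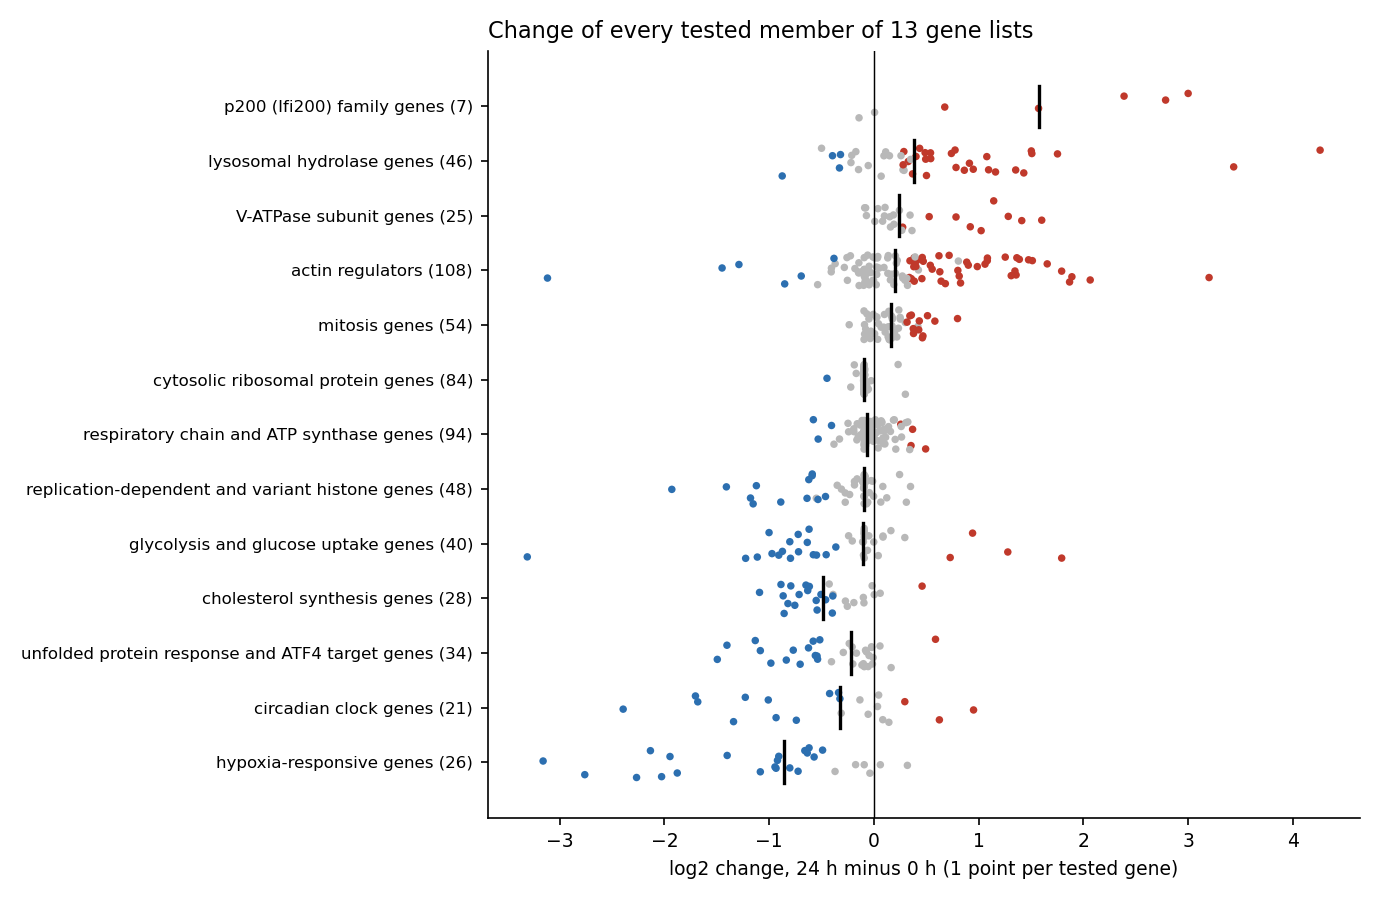
Log2 change from 0 h to 24 h (horizontal axis) of every tested member of 13 gene lists, 1 point per gene, red where called higher, blue where called lower and grey where not called, with black bars at list medians and the number tested in parentheses. Hypoxia-responsive genes spread to the left of 0 (median −0.86), lysosomal hydrolase genes to the right (median 0.39), and ribosomal protein genes stay together. A column of grey points near −0.09 holds genes at the scan ceiling.

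Immediate-early and growth factor feedback genes, which respond within minutes to mitogens and stress, gave 22 falls and 5 rises of 45 tested, and 16 of the falls were at least 2-fold. Egr1 read 14.41, 14.79 and 14.46 at 0 h and 11.23, 10.81 and 10.36 at 24 h and fell 13.5-fold. Ier2 read 15.36, 15.43 and 15.42 at 0 h and 13.74, 13.32 and 13.09 at 24 h and fell 4.05-fold. The kinase gene Sgk1 (listed as Sgk) and the feedback inhibitors Spry1 and Spry2 fell 4.76-fold, 2.30-fold and 2.42-fold. The reverse held for a close relative of Egr1 and for a nuclear receptor gene. Egr2, known to promote macrophage over neutrophil fate, read 9.70, 10.36 and 9.50 at 0 h and 12.79, 12.48 and 12.64 at 24 h and rose 6.88-fold. Nr4a1, an orphan nuclear receptor of monocytes, read 9.13, 8.83 and 8.69 at 0 h and 11.58, 11.69 and 11.63 at 24 h and rose 6.75-fold. Dual specificity phosphatase genes, which switch off MAP kinases, gave 3 rises and 5 falls of 19, with Dusp2 (3.21-fold), Dusp4 (2.47-fold) and Dusp1 (1.90-fold).

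In several families of transcription factors, falls outnumbered rises. Of AP-1 and MAF genes, 3 of 32 tested rose and 14 fell, with Junb (3.64-fold), Maff (3.62-fold), Fosb (3.26-fold) and Fosl1 (3.08-fold) against Batf (2.53-fold) and Jdp2 (listed as Jundm2, 1.97-fold). Of ETS genes, the family of PU.1, 1 of 22 tested rose and 9 fell. Ets1, known from lymphocytes, read 13.04, 13.16 and 13.07 at 0 h and 11.56, 11.87 and 11.79 at 24 h. It fell 2.55-fold, and Etv1 and Fli1 fell 2.85-fold and 1.98-fold. Of GATA, SCL and erythroid-megakaryocyte factor genes, 2 of 19 tested rose and 7 fell. Gata2, which opposes PU.1 in progenitors, read 8.57, 8.35 and 8.27 at 0 h and 7.68, 7.27 and 7.50 at 24 h and fell at least 1.87-fold, its 24 h arrays at or near background. Nfe2 and Runx2 fell 2.45-fold and 2.23-fold. Of stem and progenitor factor genes, 2 of 27 tested rose and 9 fell. Myb, which keeps progenitors cycling, read 15.75, 15.66 and 15.59 at 0 h and 14.13, 14.27 and 14.11 at 24 h and fell 2.83-fold, and Sox4, Hhex and Hoxa9 fell 2.25-fold, 1.84-fold and 1.68-fold.

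Gfi1, the repressor that favours neutrophils, read 15.89, 15.77 and 15.75 at 0 h and 13.39, 13.53 and 13.31 at 24 h and fell at least 5.24-fold. In the Egr, Nab, Gfi1 and Zeb list, 5 of 14 tested rose and 3 fell. Of basic helix-loop-helix, Id, Myc network and MiT genes, 5 of 31 tested rose and 11 fell, with falls of Mxd1 (2.72-fold) and Bhlhe40 (listed as Bhlhb2, 2.53-fold) and rises of Tfe3 (listed as Tcfe3, 1.76-fold) and Tfec (listed as Tcfec, 1.72-fold). Kruppel-like and Sp genes gave 2 rises and 5 falls of 23, Hox, Meis and Pbx genes 1 and 6 of 36, and C/EBP genes 0 and 1 of 6. The single C/EBP fall was that of Cebpa, 1.78-fold. Nuclear receptor genes gave 4 rises and 6 falls of 42. Vdr, the vitamin D receptor, read 6.84, 7.09 and 6.97 at 0 h and 10.57, 10.46 and 10.74 at 24 h and rose at least 8.996-fold from below background. Rara, a retinoic acid receptor, rose at least 2.48-fold, and Pparg fell 1.89-fold. The 5 rises among Egr, Nab, Gfi1 and Zeb repressor genes became 3 without 0 h array A. The 5 rises among basic helix-loop-helix, Id, Myc network and MiT transcription factor genes became 3 without 0 h array C, 24 h array B or 24 h array C.

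Circadian clock genes gave 3 rises and 11 falls of 21 tested. Ciart (listed as Gm129), Hlf and Per1 fell 3.26-fold, 3.21-fold and 2.01-fold, while Clock and Cry1, a core activator and a repressor, rose 1.54-fold and 1.93-fold.

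Among lists of the cell cycle machinery, calls were all rises for mitosis genes and all falls for histone genes, and replication genes had no stable larger side. Of mitosis genes, 12 of 54 tested rose and 0 fell, at a median log2 change of 0.17, and the largest rise was 0.80 ± 0.10 for Kif23, a kinesin of cytokinesis. The share of mitosis genes that rose, 22.2%, lay little above the 13.1% to 20.3% in terciles of genes above background. Of DNA replication genes, 6 of 51 tested rose and 2 fell, but 7 rose and 9 fell with normexp and quantile normalization and 4 rose and 8 fell with 75th percentile scaling. Of histone genes, 0 of 48 tested rose and 12 fell. H1f2 (listed as Hist1h1c), a linker histone, read 15.10, 15.34 and 15.06 at 0 h and 13.84, 13.76 and 13.67 at 24 h and fell 2.65-fold, as did H1f3 (listed as Hist1h1d, 2.26-fold) and H1f0 (2.22-fold). Of cyclins, CDKs and their inhibitors, 6 of 41 tested rose and 8 fell. The kinase gene Cdk14 (listed as Pftk1) and the inhibitor gene Cdkn2b rose 2.84-fold and 2.06-fold, and Cdk6 and Ccnd3 fell at least 1.67-fold and 1.66-fold. The 6 rises among DNA replication genes became 3 without 0 h array C. The 2 falls among DNA replication genes became 5 without 24 h array A.

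Genes of secreted and granule proteins moved in both directions. Spon2, a secreted matrix protein, read 9.10, 9.47 and 9.37 at 0 h and 6.60, 6.76 and 6.50 at 24 h and fell at least 3.92-fold. All 24 h arrays lay below background. Plau, the urokinase plasminogen activator, fell 2.73-fold. Tgm2, a crosslinking enzyme, read 14.35, 14.95 and 15.04 at 0 h and 11.06, 11.17 and 11.14 at 24 h, and fell 12.6-fold. F13a1, the coagulation enzyme of the same family, fell 8.34-fold. In all, plasminogen, coagulation and transglutaminase genes gave 5 rises and 12 falls of 33, and serpin genes 2 rises and 13 falls of 40. Procr, the receptor of protein C, read 7.79, 7.76 and 7.88 at 0 h and 11.15, 10.73 and 10.88 at 24 h and rose 8.64-fold. Among matrix metalloproteinase genes, Mmp9, a gelatinase, read 6.91, 7.14 and 6.89 at 0 h and 12.21, 12.93 and 12.83 at 24 h, and Mmp12 and Mmp8 rose at least 5.85-fold and 6.94-fold. The full metalloproteinase, ADAM and TIMP list gave 7 rises and 6 falls of 57, with no stable larger side. Collagen and laminin genes gave 1 rise and 10 falls of 49, and 32 of all 54 lay below background on all control arrays. The 10 falls among collagen and laminin genes became 6 without 0 h array A and 5 without 24 h array B.

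Camp, the cathelicidin of neutrophil granules, read 13.66, 14.51 and 13.79 at 0 h and 11.28, 11.03 and 10.35 at 24 h and fell 8.57-fold. Ngp and Fcnb, of the same granules, fell at least 4.35-fold and 4.66-fold, whereas Lcn2 and Chil3 (listed as Chi3l3) rose 1.85-fold and at least 2.64-fold. The secondary granule list as a whole gave 8 rises and 6 falls of 25, and 7 and 7 with 75th percentile scaling. Of primary granule and myeloblast genes, 2 of 17 tested rose and 4 fell, with Nkg7 (5.93-fold), Prtn3 (2.78-fold) and Cst7 (2.77-fold). Cfp, properdin of the complement system, read 12.38, 12.78 and 12.58 at 0 h and 16.09, 16.05 and 15.76 at 24 h and rose at least 10.5-fold, its 24 h arrays at the ceiling. Among the NADPH oxidase subunits of phagocytes, Cybb and Cyba, which form the membrane core, rose at least 2.82-fold and 1.70-fold, and the cytosolic subunit genes Ncf4 and Ncf1 fell 2.19-fold and 1.32-fold. Cytokine and growth factor ligand genes gave 7 rises and 11 falls of 52, with falls of Osm (3.88-fold), Il34 (listed as 2010004A03Rik, 3.83-fold) and Gdf15 (3.04-fold) and rises of Pdgfa (2.996-fold) and Il15 (2.12-fold). Chemokine ligands gave 5 and 4 of 25, a split that was tied or turned under the other scalings, with Ccl3 and Ccl4 2.56-fold and 2.04-fold lower. The 7 rises among cytokine and growth factor ligand genes became 4 without 24 h array B. The 5 rises among chemokine ligand genes became 3 without 0 h array A or 24 h array B.

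Some large changes lay outside the families above. Tmem119, a membrane protein known as a microglia marker, read 13.43, 13.54 and 13.14 at 0 h and 7.40, 7.81 and 7.59 at 24 h and fell at least 54.2-fold (adjusted p = 9.39e-10). Glod5 (listed as 2010001H14Rik), a glyoxalase domain protein, read 11.71, 12.18 and 11.81 at 0 h and 7.85, 8.08 and 7.67 at 24 h and fell 16.4-fold. Tnni2, the inhibitory troponin of fast muscle, read 7.62, 7.80 and 7.63 at 0 h and 13.48, 13.44 and 13.30 at 24 h and rose 52.9-fold. The groups were fully apart for all 3. Among solute carriers, 60 of 308 tested rose and 41 fell, but 48 rose and 49 fell with 75th percentile scaling. ABC transporter genes gave 11 rises and 6 falls of 44. Of haem and iron genes, 10 of 35 tested rose and 8 fell, with Slc40a1, the iron exporter, at least 2.19-fold higher and Heph, a ferroxidase, 3.14-fold lower. Of eicosanoid and phospholipase genes, 9 of 32 tested rose and 8 fell, with Tbxas1, thromboxane synthase, at least 7.99-fold higher and Lta4h 2.06-fold lower. Ion channel genes gave 16 rises and 14 falls of 135, led by Kcne3 (10.8-fold) and Trpv2 (6.85-fold), and 114 of all 171 lay below background on all control arrays. The larger side of the eicosanoid and ion channel lists turned under both other scalings.

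The remaining lists are given by counts, as rises and falls of the number tested. Surface and signalling lists were integrins with 6 and 5 of 24, other adhesion genes with 6 and 7 of 33, Ms4a genes with 3 and 0 of 12, tetraspanins with 6 and 3 of 28, and Ly6 genes with 2 and 5 of 25. Gimap genes had 0 and 1 of 5, purinergic and metabolite receptors 6 and 4 of 32, semaphorin and ephrin pathway genes 5 and 6 of 64, Notch genes 4 and 5 of 26, and Wnt genes 6 and 14 of 69. Rgs genes had 4 and 3 of 14, G protein subunits 7 and 4 of 29, Ras and Rap regulators 13 and 10 of 54, Rab genes 13 and 9 of 54, cyclic nucleotide genes 7 and 13 of 61, phosphoinositide genes 16 and 10 of 66, and JAK, STAT and SOCS genes 6 and 4 of 25. Defence and stress lists were complement with 3 and 4 of 24, NADPH oxidase with 2 and 4 of 14, cystatins with 1 and 2 of 13, antioxidant genes with 12 and 11 of 70, MHC class I with 4 and 3 of 27, Trim genes with 9 and 2 of 49, and DNA repair and p53 genes with 8 and 4 of 49. Others were tubulin, kinesin and dynein genes with 17 and 8 of 92, arginine, polyamine and NAD genes with 8 and 3 of 31, purine and pyrimidine synthesis with 4 and 7 of 31, the tricarboxylic acid cycle with 6 and 5 of 32, chaperones with 8 and 8 of 102, chromatin genes with 11 and 20 of 137, Zfp genes with 57 and 26 of 298, and keratins and crystallins with 2 and 3 of 72. Of all 96 keratins and crystallins, 68 lay below background on all control arrays. With at least 1 of the other scalings, the larger side was tied or turned for the integrin, semaphorin, Notch, G protein, Rab, phosphoinositide, complement, NADPH oxidase, antioxidant, MHC class I, DNA repair, tricarboxylic acid cycle and keratin lists. The 6 rises among Wnt pathway genes became 3 without 0 h array A or 0 h array B. The 10 falls among Ras and Rap pathway guanine exchange factor and GTPase activating genes became 6 without 0 h array C or 24 h array A. The 13 rises among Rab GTPase genes became 8 without 24 h array A. The 12 rises among antioxidant and glutathione genes became 7 without 0 h array C. The 6 rises among tricarboxylic acid cycle genes became 3 without 0 h array C. The 8 rises among heat shock protein and chaperone genes became 5 without 0 h array C. The 11 rises among chromatin writer, reader and eraser genes became 7 without 0 h array A, 0 h array C or 24 h array B and 6 without 24 h array C. The 26 falls among Zfp zinc finger genes became 15 without 0 h array B.

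Counts for genes of the basic machinery of the cell are read beside the 11.9% and 10.8% of all genes. Cytosolic ribosomal protein genes gave 0 rises and 1 fall of 84 tested, but 75 of 85 in the table were at the scan ceiling on at least 1 control array, where small changes cannot be read. Respiratory chain genes gave 4 rises and 3 falls of 94, with 47 members at the ceiling on some array and a split that turned under both other scalings. Mitochondrial ribosomal protein genes gave 3 and 4 of 78, ribosome biogenesis genes 1 and 1 of 51, proteasome genes 0 and 4 of 49, splicing genes 3 and 5 of 76, and translation factors 3 and 3 of 71. Olfactory and vomeronasal receptor genes, best known from sensory neurons, gave 13 rises and 15 falls of 675 tested, a split that turned under 1 of the other scalings. Of all 1024 such genes, 846 lay below background on all control arrays. The 4 falls among mitochondrial ribosomal protein genes became 11 without 24 h array A. The 5 falls among splicing factor and hnRNP genes became 3 without 0 h array A, 0 h array B, 24 h array A, 24 h array B or 24 h array C. The 3 rises among translation initiation and elongation factor genes became 5 without 24 h array A. The 3 falls among translation initiation and elongation factor genes became 7 without 24 h array A. The 15 falls among olfactory and vomeronasal receptor genes became 7 without 24 h array C.

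Some called genes of 1 direction followed each other in the chromosomal order of tested genes. This order held 16525 tested genes placed on the GRCm38 gene order, so genes not tested or not placed were passed over. Runs of at least 3 called genes of 1 direction numbered 83 upward, with 292 genes, and 62 downward, with 210 genes. Over all tested genes, 11.9% were called higher and 10.8% lower, and the number of runs to be had without clustering was not tested. The longest upward run had 9 genes, from Necap1 through the Clec4 cluster to Cd163 on chromosome 6, and 6 of them rose at least 2-fold. Further upward runs held 6 genes around Ifnar1 on chromosome 16, 6 around Pirb on chromosome 7, 6 around Trem2 on chromosome 17, 5 Cd300 genes and 5 Slfn genes on chromosome 11, and 5 Ifi200 genes and 5 interleukin 1 receptor family genes on chromosome 1. Downward runs included Dgat2, Mogat2, Map6 and Serpinh1 on chromosome 7, the apolipoprotein genes Apoc2, Apoc4, Apoc1 and Apoe on chromosome 7, and 4 Cyp2j genes on chromosome 4. Several of these runs are families of similar sequence, so 1 transcript may be read by more than 1 probe.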

How the data were processed

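Total RNA of 12 samples was read on Agilent 1-colour arrays. A deposited table gives scanned intensity without normalization (43379 spots of 41174 probes on each array), per the file headers. The other deposited table has normalized log2 values with 1 probe for each gene name, per the file headers. The submitters' processing notes name limma. Its version and role, how values were normalized and how probes were picked are not given in the sources used here. Values of the series matrix were identical to this table (difference 0) and were not run separately. No value column was left over.

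Gene names were matched to RefSeq symbols: 14728 directly, 4293 through a synonym, and 8655 kept the listed name. Of the called genes, 988 have clone or accession names only. The test took the 22461 genes that reached their array's 30th percentile on 3 or more arrays. With R 4.3.3 and limma 3.58.1, 4 group means were fitted to all 12 arrays, since the other 6 help to estimate the spread, and 24 h minus 0 h of the control cells was tested (two-sided, Benjamini-Hochberg). The fit had 8 residual and 3.68 prior degrees of freedom and a median SE of 0.134. Precision is limited by the number of arrays.

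The comparison and the 114 gene lists were chosen with earlier results of these data known, so counts over a list describe it and are not independent evidence. Named genes were the 15 largest rises and falls without overlap, up to 4 called members per list and direction, the 10 brightest genes that crossed background in each direction, and Spi1, Ctnnb1, Esr1 and Csf1r. Others in the text were chosen after their values were seen, and a few results are not reported here. In simulated data with 50 changed genes per size among 22461, the test recovered 12 at a log2 change of 0.5, 37 at 1, 48 at 2 and 50 at 4, with 8 false calls. Alternatives were other normalizations, filters, array weights, variance priors, a replicate block, the 6 control arrays alone, and each control array left out.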

Additional observations from a re-analysis of the deposited data

How the results depend on the processing

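The counts of rises and falls, 2674 and 2422, and of changes of at least 2-fold, 580 and 513, stayed within 1.5 times under every alternative run. Leaving out 1 control array at a time gave 2228 to 2636 rises, 1995 to 2379 falls, 568 to 637 rises of at least 2-fold and 508 to 541 such falls. The 6 control arrays alone gave 2125 rises and 1986 falls, array weights 3146 and 2947, and the filter at the 50th percentile 2931 and 2628. Of the 701 genes named by rule, 26 lost their call with normexp and quantile normalization, 35 with 75th percentile scaling, 22 without the filter on low values, 58 with the 6 control arrays alone, and 37 to 56 with 1 array left out. Col24a1, called higher, had a log2 change of −0.15 with normexp and quantile normalization and −0.32 with 75th percentile scaling, and the cause was not tested. Of the 51 genes named in the text outside the rule, 1 (Epx, not called) crossed the threshold under an alternative. The larger side of a list was tied or turned for 18 lists with normexp and quantile normalization and for 22 with 75th percentile scaling.

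The labels give the arrays of both groups the same letters. The correlations of their deviations from the group means were −0.003 for A, 0.006 for B and 0.147 for C, over 11619 genes above background. Between arrays of unlike letters these correlations ranged from −0.394 to 0.328, so the letters were not taken as pairs. The fit with the replicate block gave 2602 rises and 2363 falls. Depth limits both ends of the scale: 7301 tested genes lay below background in both groups and 450 at the scan ceiling on all 6 arrays, where changes cannot be sized, and 201 of the 580 larger rises and 115 of the 513 larger falls are lower bounds.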
